A study of Rattus norvegicus with 6 samples.

Results

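The miR-344 family was examined in the peri-infarct cortex of rats after stroke. The members were chosen by name, as every row of the count table called miR-344 with a letter or hyphen after the number, which gave 5 of the 493 mature miRNAs: miR-344b-5p, miR-344a-3p, miR-344b-1-3p, miR-344b-3p and miR-344i. The family was proposed with the difference of miR-344b-3p between the groups already known, so fold changes and counts of calls between the groups are given as a description, and no p-value of a member is given. The MCAO group held 3 male Sprague-Dawley rats with 90 min of occlusion of the right middle cerebral artery, whose cortex was taken 7 days later, counted from reperfusion in the labels of replicates 1 and 2 and from surgery in that of replicate 3. The MCAO-rTMS group held 3 rats with the same 90 min occlusion that also received repetitive transcranial magnetic stimulation (rTMS), magnetic pulses from a coil over the head, at 10 Hz for 10 min a day over 7 days, and these are also called the stimulated rats here. The labels do not give the day on which the cortex of the MCAO-rTMS rats was taken. The study heads its list of miRNAs that differ between the groups as 7 days after modeling, without naming a group. All 6 rats had the occlusion, so the values say nothing about uninjured cortex, and no sham stimulation of the MCAO rats is described in the labels.

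A miRNA is cut from the stem of a folded precursor, the hairpin, whose arms give a 5p and a 3p mature strand. The strand loaded into an Argonaute protein finds messenger RNAs mainly through its seed, bases 2 to 8 from the 5′ end, so a change of 1 seed base changes the set of sites it pairs with. The miR-344 family is a group of rodent paralogs found mainly in the nervous system. Their genes lie in the region that corresponds to the human Prader-Willi syndrome locus, an imprinted region in which several genes are read from the paternal copy.

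In the RefSeq annotation of the rat assembly GRCr8, 7 hairpins of the family stood in a row on the minus strand of chromosome 1, in the order Mir344b-2, Mir344b-1, Mir344b-3, Mir344a-2, Mir344-1, Mir344g and Mir344i, with no protein-coding gene between them. The next named protein-coding genes beyond Mir344b-2 were Slc25a19l1 and then Snrpn and Snurf, and beyond Mir344i they were Ndn, Magel2, Mkrn3, Peg12 and Potefam2. Snrpn, Snurf, Ndn, Magel2, Mkrn3 and Peg12 are known as genes of the imprinted region. The 8 RefSeq mature names of the family included 3 that the count table does not list, miR-344a-5p, miR-344-5p and miR-344g. The mature sequences of the 5 members are shown because the results turn on how little some of them differ. They are from RefSeq (GRCr8), 5′ to 3′, with the seed in capitals. The entry for miR-344a-3p is named miR-344-3p in RefSeq and belongs to Mir344-1, which carries the older name Mir344a-1.
miR-344b-5p: aGUCAGGCugcugguuauauuc
miR-344b-3p: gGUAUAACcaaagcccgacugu
miR-344b-1-3p: gAUAUAACcaaagcccgacugu
miR-344a-3p: uGAUCUAGccaaagccugaccgu
miR-344i: cUCUAGCCagggcuugacugca

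The 5 members had 5 different seeds. miR-344b-1-3p and miR-344b-3p were both 22 bases long and differed at 1 base, A2G, where position 1 is the first base at the 5′ end and the letter of miR-344b-1-3p is written first. This base lies inside the seed, and the other 21 positions matched. Of the 693 mature names in the RefSeq table, no other shared the seed of miR-344b-3p, miR-344a-3p or miR-344i. miR-410-3p alone shared that of miR-344b-1-3p. miR-344b-5p shared its seed with miR-344g, which is not in the count table. miR-344a-3p matched miR-344b-1-3p at 18 positions in the best alignment without gaps, shifted by 1 base, and both held the stretch ccaaagcc. miR-344i carries no arm in its name, and its position in its hairpin placed it on the 3p arm. The 3p arm of the Mir344a-2 hairpin differed from miR-344a-3p by C21U alone, so reads of both loci could fall in that row.

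The single base between the 3p members separates the hairpins themselves. Mir344b-2 (GRCr8 chr1:124028505-124028575) and Mir344b-3 (chr1:124044536-124044606) had the same 71 bases. Mir344b-1 (chr1:124035661-124035758), which lies between them, held these 71 bases with 1 difference, A48G, counted from the start of the stretch and with the base of Mir344b-1 first. The difference is in capitals.
Mir344b-1: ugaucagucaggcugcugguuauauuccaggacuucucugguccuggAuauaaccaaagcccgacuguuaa
Mir344b-2: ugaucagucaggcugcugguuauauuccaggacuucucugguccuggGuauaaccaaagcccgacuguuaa
By match to these annotated sequences alone, reads of miR-344b-5p can come from any of the 3 hairpins. On the same basis those of miR-344b-3p fit Mir344b-2 or Mir344b-3, and those of miR-344b-1-3p fit Mir344b-1. The hairpin from which a read was cut was not measured. The rule by which reads with 1 mismatch were counted is not given in the sources used here. The division of reads between the rows of miR-344b-3p and miR-344b-1-3p is uncertain at least to that extent.

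Library totals lay between 10492610 and 15411620 counts. The smallest count above 0 in the table was 10, and 286 of its 2958 values were listed as 0, but none of the 30 values of the family was 0. Levels are given as CPM (the usual unit of library-size-scaled counts, reads of a miRNA relative to the total of its library), with totals scaled by TMM factors, which compare libraries on the bulk of the miRNAs. The factors lay between 1.16 and 1.39 in the MCAO group and between 0.695 and 0.864 in the MCAO-rTMS group, so values without them are given where they differ in direction. Rows named for neuron-rich miRNAs summed to between 332189 and 432867 CPM in MCAO libraries and between 429315 and 620652 CPM in MCAO-rTMS libraries, with 15 of 20 above 0 in all 6 libraries. Microglial and leukocyte miRNAs summed to between 698 and 720.1 CPM and between 315 and 551 CPM, and oligodendrocyte miRNAs to between 792 and 1065 CPM and between 1283 and 2581 CPM, in the MCAO and MCAO-rTMS groups. Of the tested rows, 4 of 6 microglial and leukocyte rows were called lower and 3 of 4 oligodendrocyte rows higher in the MCAO-rTMS group, by the test described below. Of 18 neuron-rich rows, 4 were called higher and 6 lower. Among all 452 tested miRNAs, 123 were called higher and 127 lower. In the neuron-rich sum, miR-128-3p alone averaged 212037 CPM over the MCAO rats and 341033 CPM over the stimulated rats. The part of such differences in the results below was not tested. In bulk tissue, fewer cells of a type and less RNA per cell cannot be told apart.

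The family took on average 0.129% of all counts of the MCAO rats (SD 0.0084, n = 3) and 0.0581% of those of the stimulated rats (SD 0.011, n = 3). The share was 0.128%, 0.121% and 0.138% in the MCAO libraries 1 to 3 and 0.0454%, 0.0646% and 0.0644% in the MCAO-rTMS libraries 1 to 3. Each MCAO-rTMS library was thus below each MCAO library. These shares are unscaled, and with library totals only the median log2 fold change of all tested miRNAs was itself -0.80. On the scaled totals the sum averaged 1037 ± 41.6 CPM over the MCAO rats and 733 ± 200.4 CPM over the stimulated rats (SD, n = 3 each). The MCAO-rTMS libraries spread from 526 to 926 CPM, below the lowest MCAO library at 990.3 CPM. On the scaled totals 36.1% of all tested miRNAs were likewise lower in the MCAO-rTMS group without overlap.

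The 5 members differed in level and in the direction of their fold changes. Over all libraries miR-344b-5p was the most abundant, with a rank of 95 among the 493 miRNAs by mean CPM, followed by miR-344a-3p at rank 128, miR-344b-1-3p at rank 129, miR-344b-3p at rank 180 and miR-344i at rank 368. Means of miR-344a-3p and miR-344b-1-3p, 205 and 197 CPM over the 6 libraries, differed by less than their spread between libraries, and their order was reversed between the groups. The quasi-likelihood test of edgeR was run on the 452 miRNAs that passed the filter on low counts, with p adjusted over all of them after Benjamini and Hochberg. Of the family, 2 of the 5 members had an adjusted p under 0.05, both lower in the MCAO-rTMS group. Among all 452 tested miRNAs 55.3% were called in either direction and 28.1% were called lower. On the scaled totals the groups did not overlap in 2 of the 5 members, both lower, against 66.8% of all tested miRNAs in either direction and 36.1% lower. The median log2 fold change was -0.50 over the 5 members and -0.21 over all tested miRNAs.

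**Figure D1:**
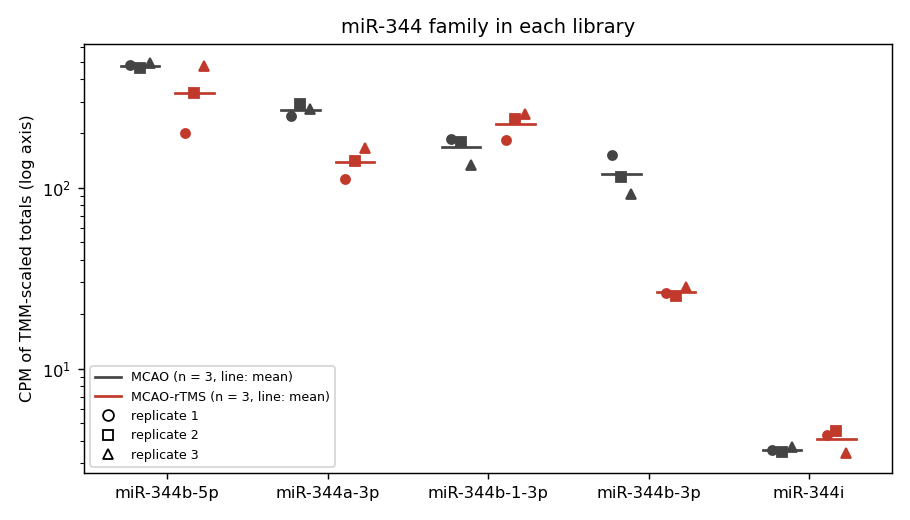
CPM of TMM-scaled totals (vertical log axis) of the 5 miR-344 family members in each of the 3 MCAO (grey) and 3 MCAO-rTMS (red) libraries, with symbols for replicates 1 to 3 and a line at each group mean. The groups are apart for miR-344b-3p and miR-344a-3p and overlap for the other 3 members.

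miR-344b-3p was the family member with the widest gap between the groups. It had 2390, 1398 and 1472 counts in the MCAO libraries 1 to 3, or 152, 115 and 92.2 CPM. In the MCAO-rTMS libraries 1 to 3 it had 348, 298 and 292 counts, or 26.2, 25.1 and 28.4 CPM. All 3 MCAO-rTMS libraries were close to each other and far below the lowest MCAO library. It averaged 120 ± 30.2 CPM over the MCAO rats and 26.6 ± 1.66 CPM over the stimulated rats (SD, n = 3 each), 4.51-fold lower. Its log2 fold change was -2.17 (standard error 0.23), which put it at rank 28 from the lowest among the 452 tested miRNAs. It is the only family member in the selection of 73 miRNAs that the authors deposited beside the full table.

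miR-344b-1-3p, the same strand with A in place of G at the second base, was not called. Its counts were 2946, 2185 and 2142 in the MCAO libraries 1 to 3 and 2436, 2837 and 2643 in the MCAO-rTMS libraries 1 to 3. On the scaled totals this was 188, 180 and 134 CPM and then 183, 239 and 257 CPM. The groups overlapped, since MCAO-rTMS replicate 1 lay between the MCAO libraries. It averaged 167 ± 29.0 CPM over the MCAO rats and 226 ± 38.4 CPM over the stimulated rats (SD, n = 3 each), and its log2 fold change was 0.44 (standard error 0.22). With library totals only the log2 fold change was -0.19 (standard error 0.20), so its direction depended on the scaling. DESeq2 called it higher at a log2 fold change of 0.50, while edgeR with RLE factors, another scaling, also gave 0.50 and did not call it.

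The share of miR-344b-3p within the pair does not depend on any scaling, since both rows come from the same library. It was 44.8%, 39.0% and 40.7% in the MCAO libraries 1 to 3, with 95% Wilson intervals of 43.5% to 46.1%, 37.4% to 40.6% and 39.1% to 42.3%. In the MCAO-rTMS libraries 1 to 3 it was 12.5%, 9.51% and 9.95%, with intervals of 11.3% to 13.8%, 8.53% to 10.6% and 8.92% to 11.1%. These intervals leave out differences between rats. They may be too narrow even for counting error, because reads amplified by PCR are not independent molecules. The groups were far apart relative to the spread between libraries, at 41.5% ± 2.96 and 10.7% ± 1.62 (SD, n = 3 each). The pair held between 2784 and 5336 counts in each library.

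**Figure D2:**
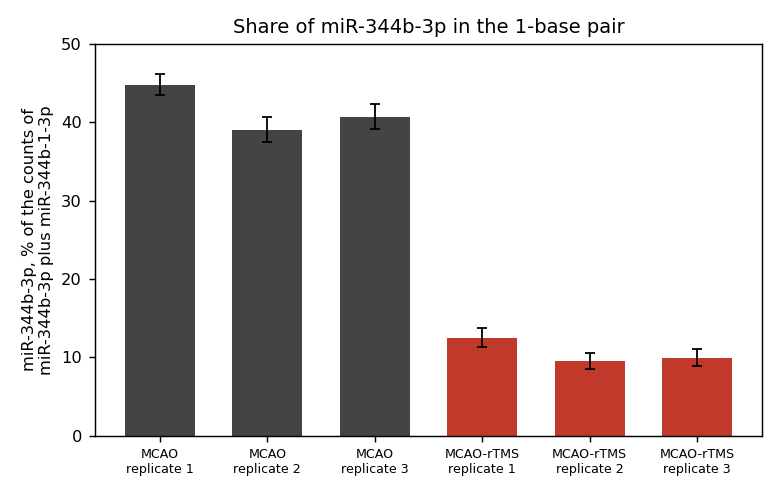
Share of miR-344b-3p in the counts of miR-344b-3p plus miR-344b-1-3p (vertical axis, percent) in each library, with MCAO in grey and MCAO-rTMS in red. Bars show 1 library each and error bars are 95% Wilson intervals. The 3 MCAO libraries sit between 39.0% and 44.8% and the 3 MCAO-rTMS libraries between 9.51% and 12.5%.

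miR-344b-5p, the opposite strand of the same hairpins, had 7479, 5592 and 7785 counts in the MCAO libraries 1 to 3 and 2673, 3996 and 4851 counts in the MCAO-rTMS libraries 1 to 3. This was 476, 461 and 488 CPM in the MCAO libraries and 201, 337 and 471 CPM in the MCAO-rTMS libraries. On these scaled totals the MCAO libraries lay within a narrow band, while the MCAO-rTMS libraries ran from far below it up to inside it. miR-344b-5p averaged 475 ± 13.1 CPM over the MCAO rats and 336 ± 135 CPM over the stimulated rats (SD, n = 3 each). Without the factors its share of all counts was 0.0570%, 0.0533% and 0.0679% in the MCAO libraries 1 to 3. In the MCAO-rTMS libraries 1 to 3 it was 0.0173%, 0.0291% and 0.0328%, so the groups did not overlap. With library totals only the means were 594 ± 76.1 and 264 ± 80.7 CPM, a wider spread in the MCAO group. On those totals its log2 fold change was -1.17, where the median of all tested miRNAs was -0.80. The log2 fold change of miR-344b-5p on the scaled totals, -0.50 (standard error 0.30), was not called. This value turned on single libraries of the stimulated rats. Without MCAO-rTMS replicate 3, the library with the lowest TMM factor, the log2 fold change was -0.81 and miR-344b-5p was called lower, which raised the number of called members from 2 to 3. Without MCAO-rTMS replicate 1 it was -0.23.

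Set against miR-344b-5p, the ratios of the 3p strands differed between the groups in opposite directions. For each read of miR-344b-5p there were 0.320, 0.250 and 0.189 reads of miR-344b-3p in the MCAO libraries 1 to 3 and 0.130, 0.0746 and 0.0602 in the MCAO-rTMS libraries 1 to 3. For miR-344b-1-3p the ratio was 0.394, 0.391 and 0.275 in the MCAO libraries and 0.911, 0.710 and 0.545 in the MCAO-rTMS libraries. Both ratios separated the groups without overlap, the first lower and the second higher in the MCAO-rTMS group. The sum of both 3p strands over miR-344b-5p averaged 0.606 ± 0.13 over the MCAO rats and 0.810 ± 0.22 over the stimulated rats (SD, n = 3 each), and here the groups overlapped, with MCAO-rTMS replicate 3 at 0.605 and MCAO replicate 1 at 0.713. The balance of 3p over 5p reads summed over the miR-344b hairpins thus differed between the groups by about the spread between libraries.

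**Figure D3:**
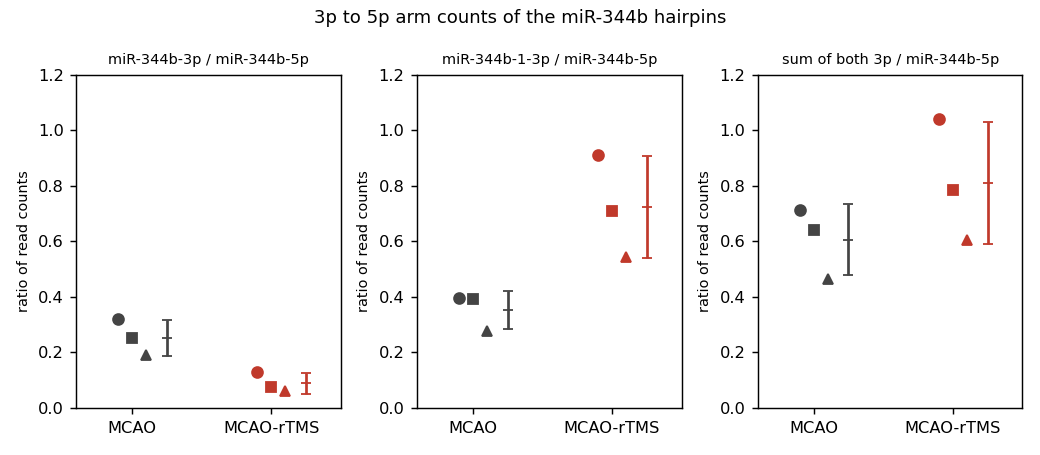
Ratios of read counts (vertical axes, no unit) of miR-344b-3p, miR-344b-1-3p and their sum to miR-344b-5p in each MCAO (grey) and MCAO-rTMS (red) library, with symbols for replicates 1 to 3 and the mean with its SD beside them. The groups are apart in the first and second panels, in opposite directions, and overlap in the third.

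miR-344a-3p, the 3p strand of the other branch of the family, was the other member called lower. It had 3942, 3508 and 4354 counts in the MCAO libraries 1 to 3 and 1480, 1674 and 1708 counts in the MCAO-rTMS libraries 1 to 3. This was 251, 289 and 273 CPM and then 111, 141 and 166 CPM, so each MCAO-rTMS library was below each MCAO library. It averaged 271 ± 19.3 CPM over the MCAO rats and 139 ± 27.4 CPM over the stimulated rats (SD, n = 3 each), 1.94-fold lower. The log2 fold change was -0.96 (standard error 0.20).

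miR-344i was rare, with 56, 42 and 59 counts in the MCAO libraries 1 to 3 and 57, 54 and 35 counts in the MCAO-rTMS libraries 1 to 3. This was 3.57, 3.47 and 3.70 CPM and then 4.29, 4.55 and 3.40 CPM. MCAO-rTMS replicate 3 was below the MCAO libraries and the other MCAO-rTMS libraries were above them. Its log2 fold change was 0.19 (standard error 0.27), and it was -0.11 with upper-quartile factors and -0.42 with library totals only. At this depth the exact Poisson interval of a single library was wide, for example 24.4 to 48.7 counts in MCAO-rTMS replicate 3. The size of difference that such counts could show was not measured.

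The scaling shifted all members by a similar amount. The median log2 fold change of all tested miRNAs was -0.21 with TMM factors, -0.15 with RLE factors, -0.50 with upper-quartile factors and -0.80 with library totals only. Taken as a difference from this median, miR-344b-3p stood at -1.97 under TMM scaling and at -1.99 under unscaled totals, and the value of miR-344a-3p was -0.75 and -0.80. For miR-344b-5p it was -0.29 and -0.37. miR-344b-1-3p was above the median by 0.64 and 0.61, and miR-344i by 0.40 and 0.38. The order of the 5 members from lowest to highest was miR-344b-3p, miR-344a-3p, miR-344b-5p, miR-344i and miR-344b-1-3p under both.

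**Figure D4:**
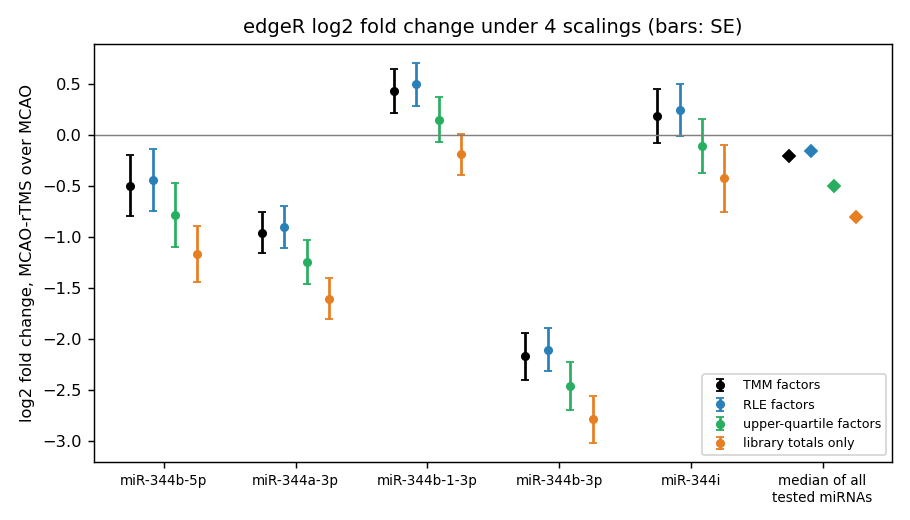
edgeR log2 fold change of MCAO-rTMS over MCAO (vertical axis) of the 5 members with its standard error under 4 scalings of the library totals, and the median of all tested miRNAs under each as a diamond. With library totals only, all 5 members are below 0, and miR-344b-1-3p and miR-344i stay above the median.

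To place the split between the miR-344b 3p strands, all tested miRNAs with a RefSeq sequence were searched for pairs of equal length that differ at 1 position, a comparison chosen after the values had been seen. A sequence was found for 452 of the 493 rows, and 17 pairs were found. The difference of log2 fold change within a pair had a median of 0.37 over the 17 pairs. It was 2.61 for miR-344b-1-3p and miR-344b-3p, 1.58 for miR-30a-5p and miR-30e-5p, which follow in this order, and 1.02 for miR-103-3p and miR-107-3p. Among the 17, the miR-344b pair was the only pair whose differing base lay in the seed, so position and size cannot be told apart here. The pairs share miRNAs and libraries, and no test was made.

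**Figure D5:**
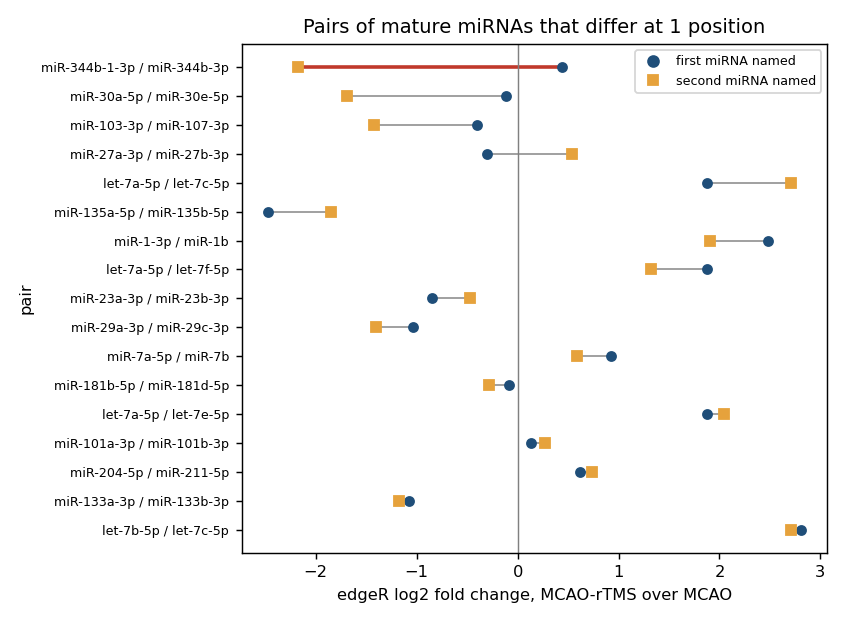
edgeR log2 fold change of MCAO-rTMS over MCAO (horizontal axis) of both miRNAs in each of 17 pairs of mature miRNAs that differ at 1 position, with the first miRNA named as a blue circle, the second as an orange square and a line between them. The miR-344b pair, with a red line, spans 2.61 and lies on both sides of 0, as the miR-27 pair also does.

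miR-410-3p, a miRNA of the imprinted Dlk1-Dio3 region on chromosome 6, has the seed of miR-344b-1-3p but little else in common with it, as its sequence shows, again from RefSeq and with the seed in capitals.
miR-410-3p: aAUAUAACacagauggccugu
It was at 165, 131 and 177 CPM in the MCAO libraries 1 to 3 and at 90.1, 66.4 and 43.7 CPM in the MCAO-rTMS libraries 1 to 3. The groups did not overlap, and its log2 fold change was -1.24 (standard error 0.29). miR-344b-1-3p therefore supplied between 43.1% and 57.9% of the CPM with this seed in the MCAO libraries and between 67.0% and 85.5% in the MCAO-rTMS libraries. The sum of both was between 311 and 352 CPM in the MCAO libraries and between 273 and 306 CPM in the MCAO-rTMS libraries.

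The other miRNAs with the most similar profile were found from the root mean square difference of centred log2(CPM + 1) over the 6 libraries, among 282 miRNAs with a mean count of at least 200 outside the family. For miR-344b-3p these were miR-384-3p (0.21), miR-376b-3p (0.24), miR-376a-5p (0.24), miR-140-5p (0.25) and miR-194-5p (0.25), where the median over the 282 was 1.06. Their log2 fold changes lay between -2.31 and -1.74. The measure includes the difference between the groups, so miRNAs close to miR-344b-3p were bound to have a similar fold change. For miR-344b-5p they were miR-149-5p (0.15), miR-331-3p (0.19), miR-539-5p (0.21), miR-935 (0.24) and miR-340-3p (0.26), where the median was 0.69. Measured in the same way, miR-344a-3p stood at 0.28 from miR-344b-5p, and miR-344b-3p at 0.86. miR-344b-1-3p was 1.28 from miR-344b-3p, farther than the median of 1.06, which their unlike fold changes already imply.

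Beside the family, 8 miRNAs known as abundant or enriched in neurons were set as a comparison list. Of these, 1 was called higher, miR-128-3p (log2 fold change 0.69), and 2 were called lower in the MCAO-rTMS group, miR-137-3p (-2.16) and miR-138-5p (-1.65). The other 5, miR-124-3p, miR-9a-5p, miR-153-3p, miR-132-3p and miR-218a-5p, had log2 fold changes between -0.61 and -0.16 and were not called. The median of the 8 was -0.49, against -0.21 over all 452 tested miRNAs, of which 123 were called higher and 127 lower.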

How the data were processed

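Peri-infarct cortex of 3 MCAO and 3 MCAO-rTMS rats gave 1 small RNA library each, with groups and replicate numbers from the sample titles. The values that the authors deposited are unnormalized counts of reads for 493 mature miRNAs, repeated for a selection of 73. Per the labels, libraries were made with a NEBNext small RNA kit, and the submitters' processing notes name bcl2fastq, BWA, DESeq2 and rn6, without versions. The miRNA database and the treatment of reads matching more than 1 miRNA are not given in the sources used here. Totals of 10492610 to 15411620 counts set the precision, which is lowest near 10 counts.

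Counts were fitted in R 4.3.3 with edgeR 4.0.16: rows kept by filterByExpr (452), TMM factors, quasi-likelihood test, Benjamini-Hochberg adjustment over all tested miRNAs, and a call at an adjusted p under 0.05. The study's methods name another test, with unadjusted p and a minimum fold change, which was not run in that form. The standard error is the size of the log2 fold change divided by the square root of F. CPM uses the scaled totals, and a pseudocount of 1 CPM was added before logs. Shares have 95% Wilson intervals. Nothing in the labels goes beyond separate titles, so the spread is that between these libraries. On data simulated for this comparison (432 miRNAs passing the filter), 92.8% of changes of 2 and 61.2% of changes of 1 on the log2 scale were called in the right direction, and 0.844% of unchanged miRNAs were called.

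All 5 members were named, with the 5 miRNAs most alike in profile to miR-344b-3p and to the most abundant member. Members and lists were chosen with earlier results of these data known. Alternatives were other scalings, DESeq2 1.42.0, limma-voom (limma 3.58.1), a linear model with equal variances on log2(CPM + 1), other filters, a block for the replicate number, and fits that left out 1 library at a time. Sequences and gene order came from RefSeq tables of GRCr8, not the build named for the counts. Figures were drawn with matplotlib 3.10.9 in Python 3.11.15.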

Additional observations from a re-analysis of the deposited data

How the results depend on the processing

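Both miR-344b-3p and miR-344a-3p were lower, with an adjusted p under 0.05, in all 16 alternative fits, with log2 fold changes from -2.79 to -1.96 and from -1.61 to -0.82. Calls were common in these fits. Over all miRNAs they numbered from 179 of 467 tested (without MCAO replicate 2) to 263 of 452 (library totals only). The number of called members was 2 or 3 throughout: 3 with library totals only, with DESeq2 and without MCAO-rTMS replicate 3. miR-344b-5p became called lower with library totals only (-1.17) and lay between -0.81 and -0.23 in the fits that left out 1 library. miR-344b-1-3p became called higher with DESeq2 (0.50) and reversed with library totals only (-0.19). miR-344i reversed with upper-quartile factors (-0.11) and library totals only (-0.42). These reversals go with the shift of the median of all miRNAs under those scalings. The median of the members was -0.78 with upper-quartile factors, -1.17 with library totals only, -0.86 when a mean count of at least 200 was required, which left 4 members, and between -0.81 and -0.23 in the fits that left out 1 library. The summed CPM of the MCAO group was 1292 with library totals only, 1148 with upper-quartile factors and between 983 and 1107 in the fits that left out 1 library of either group, the highest without MCAO-rTMS replicate 3. The causes of changes with a left-out library were not tested. The share of miR-344b-3p in its pair stayed between 39.9% and 42.8% in the MCAO group and between 9.73% and 11.2% in the MCAO-rTMS group when 1 library was left out, and the share of the family in all counts between 0.125% and 0.133% and between 0.0549% and 0.0645%. These shares were chosen for recalculation only once the data were known. With the replicate number as a block, 2 members were called, with log2 fold changes of -2.15 for miR-344b-3p and -0.98 for miR-344a-3p, and 180 of 452 miRNAs were called against 250. Same-numbered libraries had correlations of 0.20, -0.12 and -0.11 between their deviations from the group means. With 3 libraries a group these values cannot decide whether the numbers pair the rats, and the labels name no pairing. No family rows had identical counts, so merging such rows was not run. Depth limits miR-344i most, with 35 to 59 counts a library.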

Other observations

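The spread between the libraries of a group differed among the members. In the MCAO group the coefficient of variation of CPM on the scaled totals was 2.77% for miR-344b-5p. The median over the 50 miRNAs nearest in mean count was 11.7%. For miR-344i it was 3.23%, where none of the 50 was lower and the median was 19.3%. In the MCAO-rTMS group it was 40.2% for miR-344b-5p, with 42 of the 50 lower, and 6.25% for miR-344b-3p, with 3 of the 50 lower. miR-344b-3p was thus the member with the widest relative spread in the MCAO group, at 25.2%, and that with the narrowest in the MCAO-rTMS group. Counting error alone is about as large as, or larger than, the low values of miR-344i (MCAO) and miR-344b-3p (MCAO-rTMS). The exact Poisson interval of miR-344i in MCAO replicate 2, with 42 counts, was 30.3 to 56.8 counts. That of miR-344b-3p in MCAO-rTMS replicate 3, with 292 counts, was 259 to 327 counts. The low values of these 2 members therefore do not show a small spread between rats. With 3 libraries a group all these values are imprecise, and no test of the spread was made.

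The remaining marker lists were measured as follows. Muscle miRNAs summed to between 145 and 209 CPM in the MCAO group and between 390 and 540 CPM in the MCAO-rTMS group, with 3 of 6 called higher and 3 lower. Red blood cell miRNAs summed to between 141 and 302 CPM and between 513 and 637 CPM, with 1 of 2 called higher and 1 lower. The 2 endothelial rows of miR-126a summed to between 2993 and 6298 CPM and between 2017 and 3293 CPM, with 1 called lower. The liver miRNA miR-122-5p was between 2.48 and 29.6 CPM and between 10.2 and 11.1 CPM and was not called. Of the neuron-rich rows, 4 of 18 tested were called higher and 6 lower. Among all 452 tested miRNAs these numbers were 123 and 127. The part of these differences in the values of the family was not tested.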
